A study of Mus musculus with 22 samples.

Results

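The comparison set the livers of mice that received the highest particle dose against the livers of control mice. Of 22 livers in all, 10 belonged to it. The 3 high-dose livers, numbered 3, 16 and 36, came from C57BL6J animals killed 24 hours after 2 mg/kg of lipid nanoparticles with a Dsi-RNA. The RNA was directed against Hprt, as the column names give the target. The 7 control livers, numbered 1, 2, 14, 15, 27, 28 and 29, came from C57BL6J animals whose labels name no particle, dose or vehicle. The members were chosen by group label and column name alone, and every gene other than the spike-ins was read in them. Age and sex are not given in the labels used here. None of the 4 groups here is labelled as empty particles or as particles with another RNA, so lipid, RNA and the loss of Hprt cannot be told apart. All livers were perfused with phosphate-buffered saline, and the RNA was read from its 3' ends with added spike-in RNA. The other 12 livers (8 at 0.2 mg/kg and 4 given BLT-1 before 0.2 mg/kg) entered the scaling, the level filter and the estimate of the spread. Their values are given only for Xist.

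Lipid nanoparticles carry nucleic acids in the blood and are taken up mainly by the liver, where they enter hepatocytes and resident macrophages called Kupffer cells. A Dsi-RNA is a short double-stranded RNA that Dicer trims into a guide, which then directs the cleavage of a matching mRNA. Double-stranded RNA and some lipids are also known to be sensed by innate receptors. Type I interferons then switch on antiviral genes through the interferon-stimulated response element (ISRE), and cytokines of the interleukin 6 and interleukin 1 type make hepatocytes secrete acute phase proteins.

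Values are CPM, the reads of a gene scaled to a common total of gene reads after TMM correction. Differences are log2 fold changes of CPM + 0.5 with their standard error (SE), so they understate the change of low genes. A gene was called at a limma p below 0.05 after Benjamini-Hochberg adjustment over 10763 tested genes. The control libraries held 7152596 to 11447028 reads, and those of livers 3, 16 and 36 held 8327092, 15101565 and 11838768. Spike-ins took 2.89 to 6.16% of reads in controls and 4.42 to 7.18% at 2 mg/kg, and mitochondrial transcripts took 14.7 to 16.9% and 15.4 to 15.99% of gene reads. The labels number the animals but name no cage, litter or day, so the p-values measure the spread between these livers. Features of the libraries ran alongside the results. All 3 high-dose livers carried a sex-linked pattern that no other liver showed, and controls 28 and 29 stood apart from the other 5 controls in acute phase, fatty acid oxidation and unfolded protein genes.

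Hprt (ENSMUSG00000025630.9), the purine salvage enzyme hypoxanthine phosphoribosyltransferase, was the target of the RNA. It ranged from 24.8 to 38.7 CPM in the controls, with a median of 28.4, and stood at 15.3 in liver 3, 17.7 in liver 16 and 13.01 in liver 36. The groups did not overlap. The mean was 30.1 ± 4.87 CPM (SD, n = 7) in controls and 15.3 ± 2.32 (SD, n = 3) at 2 mg/kg, which is 51.8% of control on the log scale. The difference was -0.95 ± 0.11 log2 (limma adjusted p = 1.36e-05), and a two-sided exact permutation test gave p = 0.00833, the smallest that 3 against 7 livers allow. The 2 highest controls were 28 and 29, and without them Hprt was at 56.3% of control (exact permutation p = 0.0179, again the smallest possible). On the deposited spike-in scale the limma call was lost (-1.19 log2, adjusted p = 0.134).

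Of the 10763 genes tested, 847 (7.87%) were called, 434 (4.03%) higher and 413 (3.84%) lower at 2 mg/kg. The larger changes were mostly increases: 117 called genes rose and 36 fell more than 2-fold. The 3 high-dose livers lay wholly above the 7 controls for 452 genes (4.20%) and wholly below for 359 (3.34%). The count rested on livers 3 and 36 more than on liver 16, with 373 genes called without liver 3, 427 without liver 36 and 1056 without liver 16. On the deposited spike-in scale, where the median gene shifted by -0.20 log2, 55 genes (0.511%) were called. Of the lists described next, 8 type I interferon, 0 class I, 6 acute phase, 9 female-biased, 12 male-biased and 0 fatty acid oxidation genes were called on that scale. Hprt itself, at -0.95 log2, fell slightly less than 2-fold, as the plot of change against level shows.

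**Figure D1:**
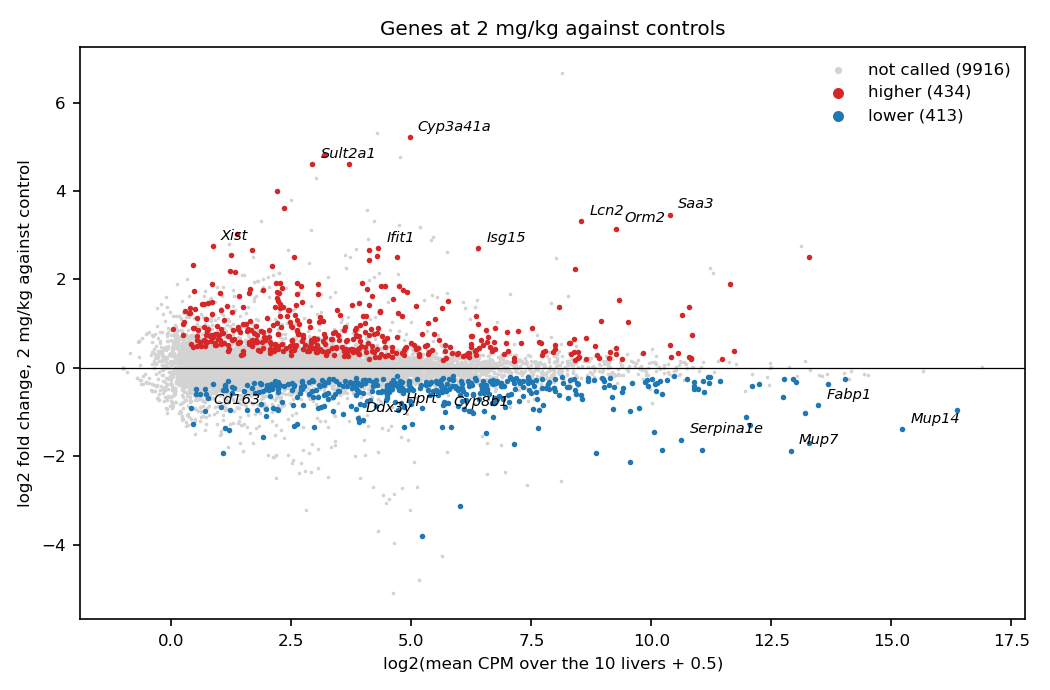
Log2 fold change at 2 mg/kg against control (vertical axis) against log2 of the mean CPM over the 10 livers plus 0.5 (horizontal axis) for the 10763 genes tested, with the 434 genes called higher in red and the 413 called lower in blue. Saa3, Lcn2 and Orm2 combine high level and large increase, and Mup14 and Mup7 combine very high level and decrease.

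The largest differences were in sex-linked and sex-biased transcripts. Xist, a noncoding RNA of female cells that silences an X chromosome, ranged from 0 to 0.312 CPM in controls with a median of 0.147, and read 4.28, 2.82 and 4.88 CPM in livers 3, 16 and 36 (2.75 ± 0.21 log2, limma adjusted p = 7.75e-08). In the 12 livers of the other 2 groups it reached at most 0.297 CPM. Ddx3y, a Y-linked RNA helicase, ranged from 15.6 to 18.5 CPM in controls with a median of 17.1, and read 6.47, 8.90 and 7.28 CPM (-1.14 ± 0.08 log2, limma adjusted p = 2.53e-08). The same livers thus held both Xist and Y-linked RNA, with Xist above and Ddx3y below every control. The rule for the most lowered genes required this of Ddx3y. Eif2s3y, a Y-linked translation factor, fell too (-0.84 ± 0.15), while Uty and Kdm5d overlapped between the groups. Xist met the level filter only through the 3 high-dose livers, so its p-value follows a selection on the same difference. With 2 high-dose livers left, Xist no longer met the filter and was not tested.

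Of 24 tested genes on a list of female-biased liver genes, 16 rose and 0 fell, with a median of 1.40 log2 against 0.01 over all genes tested. The count was 12 without liver 3, liver 16 or liver 36. A gene near 0 CPM in all other livers meets the level filter only through the 3 high-dose livers. Such a gene could not have come out lower, so the count and median partly follow from the filter. Sult2a1, a sulfotransferase of bile acids and steroids, ranged from 0 to 0.893 CPM in controls with a median of 0.385, and read 9.98, 24.2 and 34.6 CPM in livers 3, 16 and 36 (4.62 ± 0.40 log2, limma adjusted p = 3.35e-07). Cyp3a41a, a female-biased cytochrome P450, ranged from 0.408 to 2.80 CPM with a median of 2.22, and read 51.4, 93.0 and 147 CPM (5.22 ± 0.65). Cyp2a4, a steroid hydroxylase, ranged from 5.13 to 7.19 CPM with a median of 5.66, and read 54.7, 41.8 and 30.3 CPM (2.67 ± 0.17). None of these 3 genes overlapped between the groups, which the rule for the most raised genes required. Liver 3, lowest for Sult2a1 and Cyp3a41a, was highest for Cyp2a4.

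Male-biased genes showed the opposite. Of 35 tested, 31 fell and 0 rose, all 35 differences were negative, and the median was -0.98. Cyp2d9, a male-biased steroid hydroxylase, ranged from 221 to 254 CPM in controls with a median of 235, and read 108, 150 and 107 CPM (-0.96 ± 0.08 log2, limma adjusted p = 2.71e-07). Major urinary proteins, the pheromone carriers that male mouse livers secrete, fell in 17 of 21 tested genes, with 0 rising. Their summed level ran from 65294 to 114100 CPM in controls and was 27860, 47555 and 36221 CPM in livers 3, 16 and 36. Mup7 (-1.88 ± 0.26) and Mup11 (-1.69 ± 0.29) were examples, as was Serpina1e, a protease inhibitor gene (-1.63 ± 0.19). Liver 16 kept the most and liver 3 the least of these transcripts, and no high-dose liver reached the lowest control sum. Reads of near-identical copies (Mup, Sult2a, Serpina1, Cyp2a and Cyp3a genes) are hard to assign to a member.

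Sex bias of mouse liver follows the pulses of pituitary growth hormone. Of 19 genes on a growth hormone and insulin-like growth factor list, 2 rose and 5 fell. Prlr, the prolactin receptor (0.86 ± 0.18), was higher, and Igfbp2, a carrier of insulin-like growth factors (-0.79 ± 0.14), was lower. The 5 that fell were reduced to 1 without liver 3 and to 2 without liver 36, and the 2 that rose to 1 without liver 36. The sex-linked and sex-biased lists held 17 of the 434 genes called higher and 33 of the 413 called lower. These counts are a floor, since the lists do not hold every sex-biased gene. The male-biased list summed to at most 66198 CPM in controls, whereas the Mup genes alone summed to as much as 114100 CPM. Dose and the sex-linked pattern cannot be told apart, since each high-dose liver carried it and no control did, and this holds for the change in Hprt and for every other difference given here. Whether the 3 libraries come from single animals, pooled livers or mixed RNA was not tested, and the labels used here do not say. The plot by liver shows both.

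**Figure D2:**
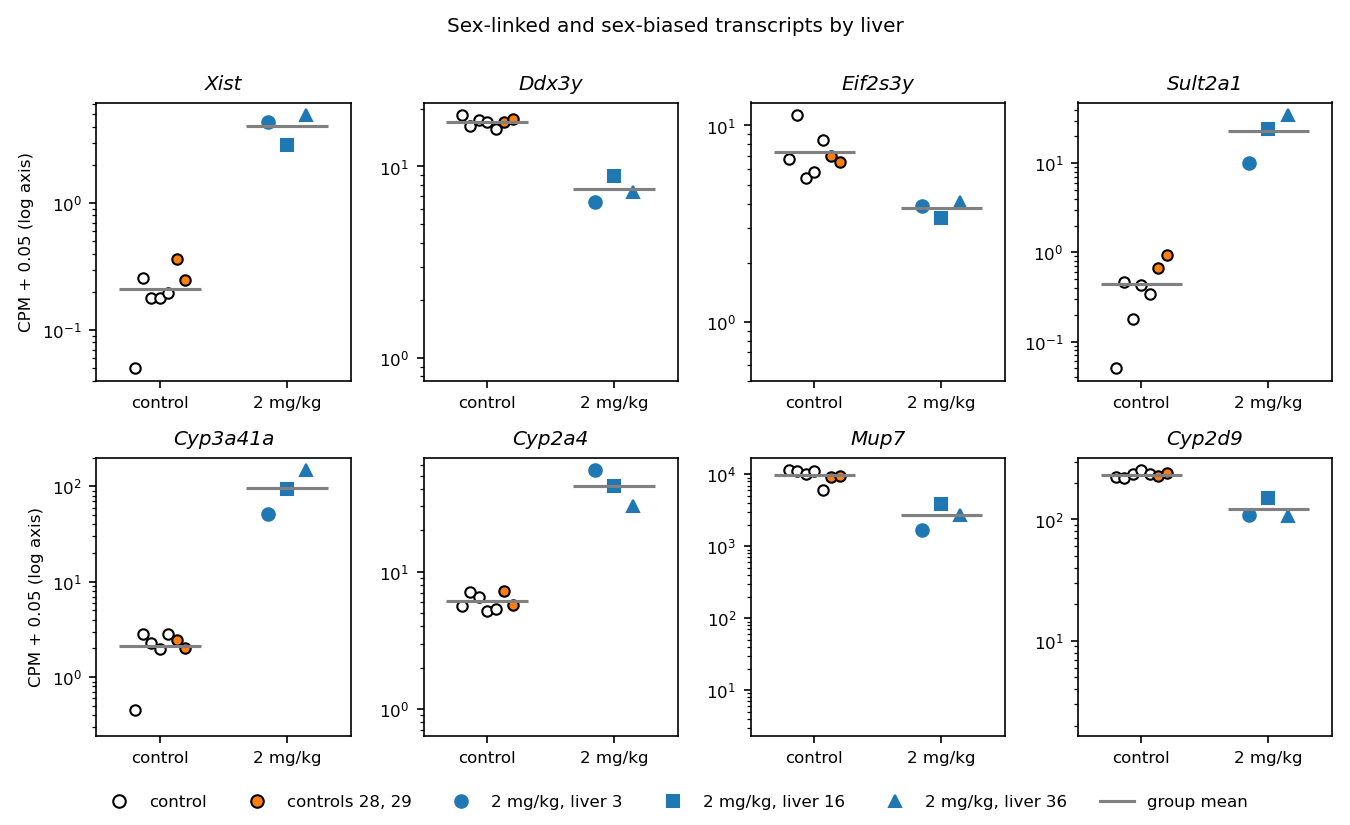
CPM plus 0.05 on a log axis for 8 sex-linked or sex-biased genes in each of the 7 control livers (circles, with controls 28 and 29 filled) and the 3 livers at 2 mg/kg (filled symbols, a shape for each liver), with group means as lines. Xist, Sult2a1, Cyp3a41a and Cyp2a4 lie above and Ddx3y, Eif2s3y, Mup7 and Cyp2d9 below all controls in each of the 3 livers. The rule for the most changed genes required this of Sult2a1, Cyp3a41a, Cyp2a4, Ddx3y and Mup7.

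Genes of the type I interferon response rose together. Of 48 listed, 42 were tested, 33 rose and 0 fell, with a median of 1.21 log2. The mean over the list was 1.42 log2 above the control mean in liver 3, 0.70 in liver 16 and 1.59 in liver 36, and controls ran from -0.24 to 0.20. Liver 16, the weakest, thus still lay above every control. The count was 28 without liver 3 or without liver 36, and 33 without controls 28 and 29. The 250 bases before the transcription start of 3 genes called higher, from RefSeq on GRCm38.p6, are shown because each carries the core of the ISRE. Capitals mark matches on either strand to the core, which is GAAA, any 2 bases and GAAA.
Isg15, chr4:156200819-156201068, minus strand: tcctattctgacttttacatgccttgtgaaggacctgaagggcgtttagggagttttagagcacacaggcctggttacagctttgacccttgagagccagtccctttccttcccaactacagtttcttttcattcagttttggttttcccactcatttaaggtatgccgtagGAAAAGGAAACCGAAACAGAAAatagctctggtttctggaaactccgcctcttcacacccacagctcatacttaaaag
Ifit1, chr19:34640639-34640888, plus strand: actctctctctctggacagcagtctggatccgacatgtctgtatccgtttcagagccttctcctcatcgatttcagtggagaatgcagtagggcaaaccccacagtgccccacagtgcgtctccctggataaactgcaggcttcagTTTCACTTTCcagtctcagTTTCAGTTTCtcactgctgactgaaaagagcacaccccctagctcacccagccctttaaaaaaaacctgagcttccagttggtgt
H2-T22, chr17:36042743-36042992, minus strand: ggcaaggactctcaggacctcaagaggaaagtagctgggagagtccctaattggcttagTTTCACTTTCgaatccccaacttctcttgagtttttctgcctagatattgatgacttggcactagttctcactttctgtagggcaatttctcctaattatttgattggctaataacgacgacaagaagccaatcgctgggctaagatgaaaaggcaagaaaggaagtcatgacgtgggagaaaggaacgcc

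The Isg15 promoter held 3 overlapping matches that began 78 bases before the start, the Ifit1 promoter held 2 from 104 bases before it, and the H2-T22 promoter held 1 at 191 bases. In windows from 250 bases before to 50 after the start, the core was present in 3.44% of all 32851 RefSeq promoters (1131) and in 3.21% of those of tested genes. It was present in 13.6% of promoters of genes called higher (60 of 441, for 340 of 434 genes matched by symbol) and in 2.88% of those of genes called lower. Among type I interferon genes called higher it was present in 48.0% (12 of 25 promoters, for 23 of 33 genes matched). A match is a description of letters and not evidence of a bound site.

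Isg15, a ubiquitin-like protein joined to other proteins during antiviral responses, ranged from 10.1 to 39.7 CPM in controls with a median of 31.5, and read 273, 82.9 and 272 CPM in livers 3, 16 and 36 (2.71 ± 0.39 log2, limma adjusted p = 1.41e-04). Ifit1, which binds viral RNA lacking the host cap methylation, ranged from 4.35 to 9.28 CPM with a median of 6.05, and read 53.5, 19.03 and 76.2 CPM (2.71 ± 0.28, limma adjusted p = 4.38e-06). Rtp4, an interferon-induced receptor transporter, ranged from 7.84 to 10.1 CPM with a median of 8.86, and read 28.9, 18.95 and 32.6 CPM (1.48 ± 0.12, limma adjusted p = 2.71e-07). For each gene the 3 livers lay above all 7 controls, which the rule for the most raised genes required of Isg15 and Ifit1. Liver 16 was the lowest of the 3 livers for each gene. Irf7, the transcription factor that amplifies interferon production (1.93 ± 0.23), and Usp18, which removes Isg15 and dampens the interferon receptor (1.92 ± 0.24), rose as well. Bst2, which tethers viruses at the cell surface (1.39 ± 0.18), and Ifi44 (2.52 ± 0.37) did too.

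Genes of the interferon gamma list and its guanylate-binding and immunity-related GTPases rose in 7 of 23 tested cases, with 0 falling and a median of 1.04. Igtp, a GTPase that acts on vacuoles holding pathogens, ranged from 7.21 to 13.8 CPM in controls with a median of 10.0, and read 34.9, 21.3 and 46.6 CPM (1.62 ± 0.27 log2, limma adjusted p = 5.99e-04). Gbp3 (1.93 ± 0.27), Gbp7 (1.30 ± 0.21) and Irgm2 (1.05 ± 0.18) behaved alike, without overlap. Because the members share sequence, the split of reads between Gbp genes is uncertain.

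Antigen presentation by MHC class I moved with the interferon genes. Of 20 tested members, 16 rose and 0 fell, with a median of 0.60. H2-D1, a classical class I chain, ranged from 120 to 144 CPM in controls with a median of 136, and read 208, 190 and 204 CPM (0.56 ± 0.06 log2, limma adjusted p = 5.78e-06). H2-T22, a non-classical chain, ranged from 8.02 to 12.9 CPM with a median of 11.6, and read 34.6, 21.99 and 35.5 CPM (1.42 ± 0.16). Psmb8, a catalytic subunit of the immunoproteasome that cuts peptides for class I, ranged from 9.11 to 16.8 CPM with a median of 14.2, and read 31.02, 29.8 and 41.6 CPM (1.28 ± 0.15). No high-dose liver overlapped the controls in these 3 genes, and the change in H2-D1 was small but nearly equal in the 3 livers. Tapbp, which loads peptides onto class I, rose by less (0.78 ± 0.12). The ISRE core was present in 23.5% of promoters of the class I genes called higher (4 of 17).

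MHC class II genes, which mark dendritic cells, macrophages and B cells, did not move with class I. Of 8 tested, 0 rose and 1 fell, with a median of -0.20. The 1 gene was Ctss, a protease that prepares class II molecules (-0.39 ± 0.11, limma adjusted p = 0.0314). Its call was lost without control 14 (-0.37), control 15 (-0.37), liver 3 (-0.34) or liver 36 (-0.27), and 2 genes fell without liver 16.

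Of 15 nucleic acid sensors and adaptors, 4 rose and 0 fell, and the median was 0.00. Unc93b1, the chaperone that delivers endosomal Toll-like receptors, ranged from 5.26 to 7.53 CPM in controls with a median of 5.60, and read 9.87, 8.68 and 8.99 CPM (0.57 ± 0.11 log2, limma adjusted p = 0.00233). The other 3 were Adar (0.83 ± 0.17), which edits double-stranded RNA, Ikbke (0.60 ± 0.16), a kinase below the sensors, and Tlr2 (0.75 ± 0.22), a receptor of lipoproteins. The count fell to 1 without liver 3 and to 2 without liver 36. Of 14 tested genes of the RNA interference machinery, 0 were called. Tnrc6a, a partner of Argonaute, differed by 0.12 ± 0.25 and Tsn, for translin, by -0.10 ± 0.07.

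**Figure D3:**
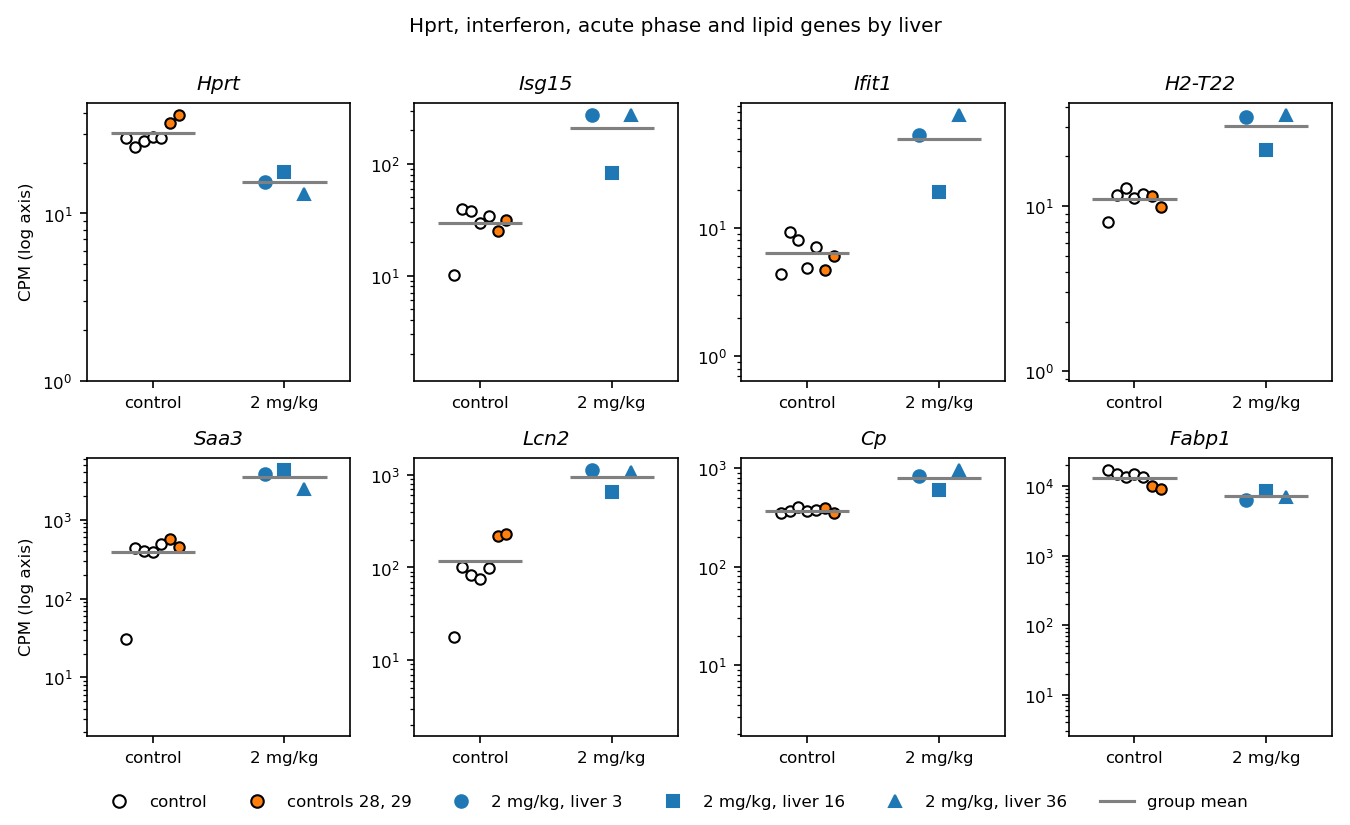
CPM on a log axis for Hprt and 7 interferon, class I, acute phase and lipid genes in each liver. The 7 control livers are circles, with controls 28 and 29 filled. The 3 livers at 2 mg/kg are filled symbols, a shape for each liver, and lines are group means. Liver 16 is the lowest of the 3 high-dose livers for Isg15, Ifit1 and H2-T22, and control 1 lies far below the other controls for Saa3 and Lcn2.

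Acute phase genes were higher in every high-dose liver. Of 33 tested, 20 rose and 0 fell, with a median of 1.07. Saa3, a serum amyloid A of inflamed tissue, ranged from 31.1 to 564 CPM in controls with a median of 438, and read 3786, 4258 and 2492 CPM in livers 3, 16 and 36 (3.47 ± 0.74 log2, limma adjusted p = 0.00455). Lcn2, a lipocalin that withholds bacterial iron carriers, ranged from 17.9 to 230 CPM with a median of 98.5, and read 1120, 658 and 1084 CPM (3.32 ± 0.68). Orm2, an orosomucoid that carries lipophilic molecules in plasma, ranged from 29.8 to 389 CPM with a median of 185, and read 1440, 1706 and 1443 CPM (3.15 ± 0.69). Lack of overlap was part of the rule that named these 3 genes. Over the whole list 16 of 33 genes lay wholly above the controls, against 4.20% of all genes tested. Hp, for haptoglobin, did overlap: it ranged from 669 to 2088 CPM in controls and read 1848, 2932 and 2866 CPM. The list mean ran from -1.06 in control 1 to 0.89 in control 28 and 0.95 in control 29, and stood at 1.31, 1.30 and 1.43 in livers 3, 16 and 36. Liver 16, weakest for interferon genes, lay close to the other high-dose livers here.

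Cp, the copper-carrying ferroxidase ceruloplasmin, was steady among controls. It ranged from 351 to 398 CPM with a median of 364, and read 833, 594 and 949 CPM (1.07 ± 0.11 log2, limma adjusted p = 4.96e-06). Hpx, the plasma carrier of free heme, ranged from 709 to 1780 CPM with a median of 1055, and read 2959, 2879 and 3255 CPM (1.38 ± 0.21). Neither gene overlapped between the groups. Il1rn, the natural antagonist of the interleukin 1 receptor (1.80 ± 0.28), and Orm1 (1.89 ± 0.31) rose, and orosomucoid and serum amyloid A copies share sequence. The list count was 15 without liver 3 or liver 36 and 31 without controls 28 and 29. Of 23 iron and heme genes 5 rose and 0 fell, Hpx among them, and the count was 3 without liver 3 and 2 without liver 36.

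The promoter of Orm2 is shown because it carries a letter pattern searched with C/EBP factors in mind, which relay interleukin signals to acute phase genes. The pattern was not checked against known C/EBP sites, so matches to it are not counts of such sites. Capitals mark the match to TTGCNNNAA, searched on both strands, and the match begins 121 bases before the start.
Orm2, chr4:63362199-63362448, plus strand: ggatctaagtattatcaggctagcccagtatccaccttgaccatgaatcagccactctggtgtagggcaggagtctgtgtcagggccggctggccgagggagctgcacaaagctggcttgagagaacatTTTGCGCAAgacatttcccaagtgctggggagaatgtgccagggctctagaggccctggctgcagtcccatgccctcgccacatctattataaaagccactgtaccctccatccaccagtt

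That pattern was present in 9.56% of all promoters, in 15.9% of those of genes called higher and in 31.6% of those of acute phase genes called higher (6 of 19 promoters). It was present in 8.19% of those of tested genes, in 7.85% of those of genes called lower and in 41.2% of those of class I genes called higher (7 of 17). The gamma-activated site TTCNNNGAA was present in 8.30% of all promoters, 6.65% of those of tested genes, 10.4% of those called higher and 5.50% of those called lower. The NF-kB pattern, GGG and CC with 5 bases between them, was present in 50.8%, 65.5%, 59.2% and 59.2% of the same sets.

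Cytokines, chemokines and NF-kB targets rose in 6 of 32 tested genes, with 0 falling and a median of 0.21. Ccl7, a chemokine that draws monocytes, ranged from 0.256 to 2.06 CPM in controls with a median of 0.397, and read 3.18, 2.60 and 4.02 CPM (1.69 ± 0.31 log2, limma adjusted p = 0.00124). These were low levels, and the groups were separated by less than 1 CPM at the nearest livers. The count fell to 2 without liver 3 and to 2 without liver 36. Ccl2 (1.67 ± 0.36), which draws the same cells, lost its call without liver 3 (1.52) or liver 36 (1.21).

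Complement and coagulation genes moved in both directions. Of 42 tested, 6 rose and 8 fell, with a median of -0.02. Cfb, complement factor B of the alternative pathway, ranged from 505 to 588 CPM in controls with a median of 564, and read 683, 793 and 787 CPM (0.45 ± 0.07 log2, limma adjusted p = 2.46e-04). C6, a subunit of the membrane attack complex, ranged from 27.9 to 38.9 CPM with a median of 32.1, and read 16.6, 20.98 and 15.4 CPM (-0.89 ± 0.11, limma adjusted p = 3.16e-05). C6 also stands on the male-biased list. The number that fell was 2 without liver 3 and 4 without liver 36. A list of proteins that usually decline in an acute phase response and of transport proteins held 18 tested genes. Of these, 3 rose (16.7%) and 5 fell (27.8%), against 4.03% and 3.84% of all genes tested. Rbp4, the retinol carrier, fell (-0.42 ± 0.08) and Serpina7, the thyroxine-binding globulin, rose (0.75 ± 0.13). The 5 were reduced to 1 without liver 3, 1 without liver 36 and 3 without control 15, and the 3 to 1 without liver 36.

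**Figure D4:**
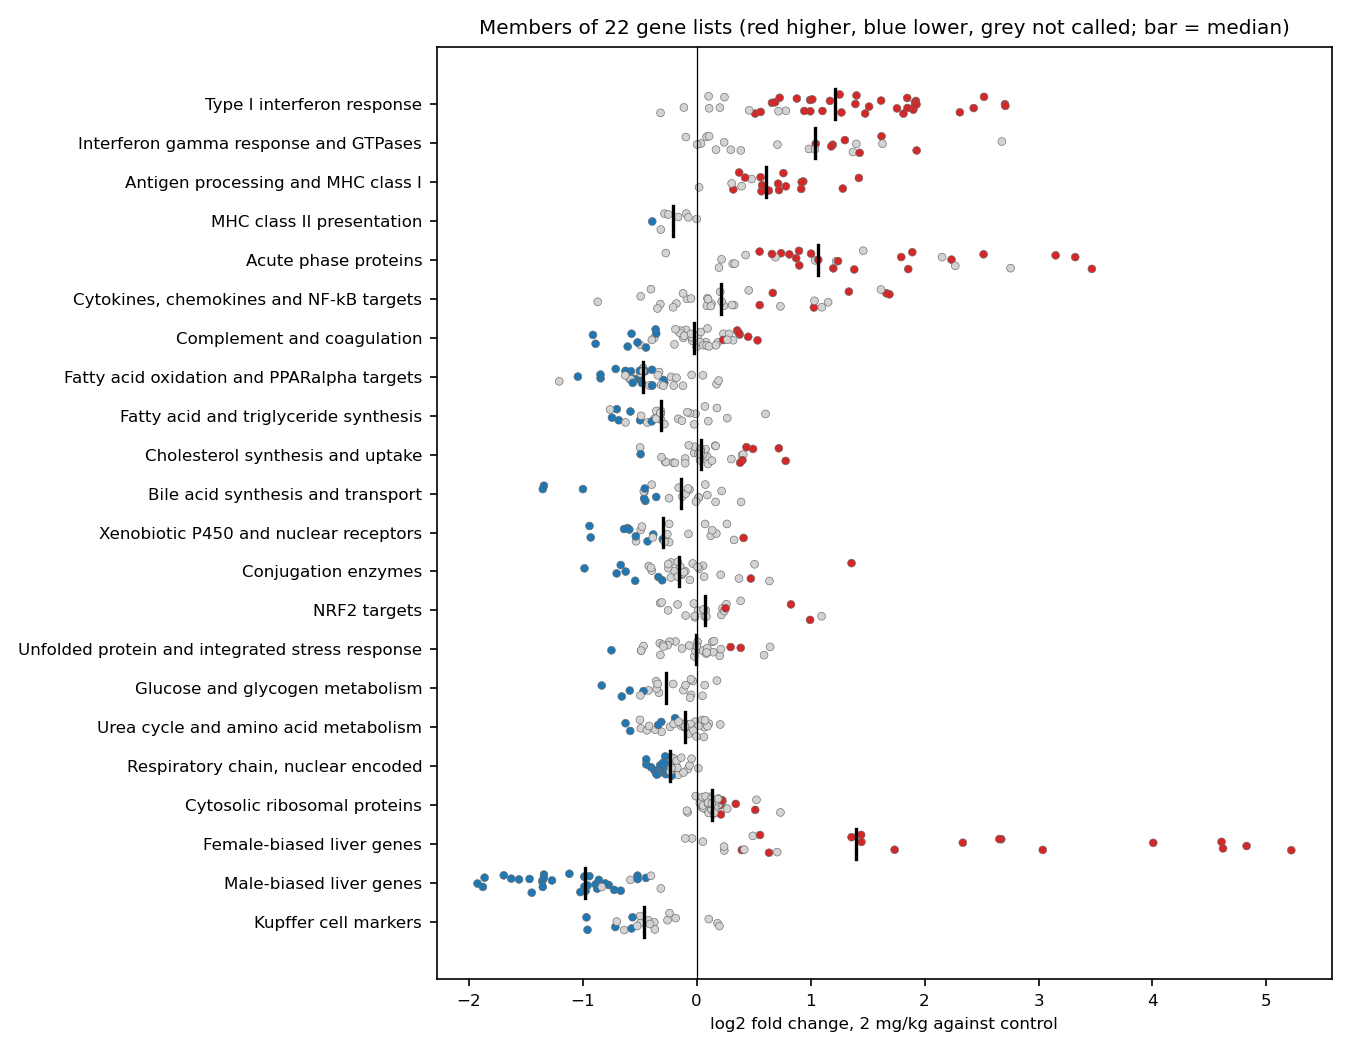
Log2 fold change at 2 mg/kg against control for each tested member of 22 gene lists (points, red called higher, blue called lower, grey not called), with the list median as a bar. The type I interferon, class I and acute phase lists lie mostly to the right of 0, with medians of 1.21, 0.60 and 1.07, and the fatty acid oxidation list lies mostly to the left, with a median of -0.47.

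Genes of fatty acid oxidation and other targets of the receptor PPARalpha were lower. Of 39 tested, 19 fell and 0 rose, with a median of -0.47. Acaa1b, a peroxisomal thiolase, ranged from 357 to 448 CPM in controls with a median of 418, and read 279, 293 and 236 CPM (-0.62 ± 0.08 log2, limma adjusted p = 3.20e-05). Fabp1, the fatty acid carrier of hepatocytes, ranged from 8983 to 16756 CPM with a median of 13584, and read 6328, 8386 and 6993 CPM (-0.84 ± 0.14). Both genes lay below every control in each liver, although the highest high-dose Fabp1 level came close to the lowest control. The list mean was -0.53, -0.31 and -0.47 in livers 3, 16 and 36, and controls 28 and 29 were the highest controls, at 0.32 and 0.36. The count was 7 without liver 3, 11 without liver 36 and 19 without controls 28 and 29.

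Synthesis of fatty acids and triglycerides was lower for 6 of 29 tested genes and higher for 0. Me1, the malic enzyme that supplies NADPH, ranged from 26.9 to 41.0 CPM in controls with a median of 37.2, and read 19.6, 23.4 and 18.7 CPM (-0.74 ± 0.12 log2, limma adjusted p = 4.39e-04). The desaturases Fads1 (-0.39 ± 0.06) and Fads2 (-0.58 ± 0.10) and the elongase Elovl5 (-0.70 ± 0.12) fell with it. The count was 10 without liver 16 and 13 without controls 28 and 29.

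Cholesterol synthesis differed from the other lipid lists. Of 34 tested genes, 6 rose (17.6%) and 1 fell (2.94%, near the 3.84% of all genes tested), and the median was 0.04. Sqle, the squalene epoxidase, ranged from 10.4 to 13.8 CPM in controls with a median of 11.99, and read 18.5, 18.95 and 23.02 CPM (0.72 ± 0.09 log2, limma adjusted p = 3.16e-05). Dhcr7, the enzyme of the last step, also rose (0.50 ± 0.11). The 6 became 2 without liver 36, and the fall was lost without control 1, liver 3 or liver 36, with up to 4 falling when control 29 was left out.

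Bile acid genes fell in 8 of 24 tested cases and rose in 0. Cyp8b1, the sterol hydroxylase that sets the share of cholic acid, ranged from 50 to 80.0 CPM in controls with a median of 57.5, and read 28.6, 34.9 and 26.4 CPM (-0.997 ± 0.14 log2, limma adjusted p = 1.51e-04). Cyp27a1, which opens the alternative pathway, ranged from 87.2 to 111 CPM with a median of 99.9, and read 65.8, 81.8 and 65.5 CPM (-0.46 ± 0.08). Cyp7b1 (-1.34 ± 0.22) and the transporter Slco1a1 (-1.35 ± 0.21) fell most in this list, and both also stand on the male-biased list. The groups did not overlap in any of these 4 genes, which the rule for the most lowered genes required of Cyp7b1 and Slco1a1.

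Of 25 cytochrome P450 genes and receptors of drug metabolism, 9 fell (36%, against 3.84% of all genes tested). The 1 that rose (4%) was near the 4.03% of all genes tested. Cyp3a11, the main drug-oxidising enzyme of its family in mouse liver, ranged from 495 to 916 CPM in controls with a median of 746, and read 276, 431 and 373 CPM (-0.93 ± 0.16 log2, limma adjusted p = 7.88e-04). Cyp2f2, an enzyme that oxidises naphthalene, fell by a like amount (-0.94 ± 0.17). Of 34 conjugation and hydrolysis enzymes, 7 fell (20.6%) and 2 rose (5.88%, also near the share of all genes tested). Ephx2, the soluble epoxide hydrolase, ranged from 199 to 239 CPM with a median of 221, and read 122, 162 and 126 CPM (-0.70 ± 0.08, limma adjusted p = 5.78e-06). Liver 16 was closest to the controls for all 3 genes. The P450 genes that fell numbered 4 without liver 3 and 14 without liver 16, and the conjugation genes numbered 3 without liver 3. The P450 gene that rose lost its call without controls 1, 2, 14, 15 or 27 or livers 16 or 36, and of the 2 conjugation genes that rose 0 were called without control 1, liver 3 or liver 36.

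Nuclear-encoded subunits of the respiratory chain fell in 20 of 39 tested cases and rose in 0, by small amounts. The median was -0.23, and 38 of the 39 differences were negative. Atp5a1, a subunit of ATP synthase, ranged from 317 to 352 CPM in controls with a median of 325, and read 209, 266 and 252 CPM (-0.44 ± 0.06 log2, limma adjusted p = 1.61e-04). Cox5a, a subunit of cytochrome c oxidase, ranged from 508 to 627 CPM with a median of 568.5, and read 372, 460 and 410 CPM (-0.44 ± 0.06). Neither overlapped. The count was 5 without liver 3, 9 without liver 36 and 27 without liver 16.

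Of 20 genes of glucose and glycogen metabolism, 4 fell and 0 rose. Gys2, the liver glycogen synthase, ranged from 560 to 785 CPM in controls with a median of 624.6, and read 391, 481 and 373 CPM (-0.66 ± 0.11 log2, limma adjusted p = 8.05e-04). The count was 2 without liver 3 or liver 36, and 7 without liver 16 or control 29. Of 33 urea cycle and amino acid genes 5 fell, and 0 were called without liver 3, 2 without liver 36 and 11 without liver 16.

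Purine metabolism was read because Hprt belongs to it. Of 19 tested genes on a list that leaves out Hprt itself, 3 rose and 0 fell. Pnp, which releases the bases that Hprt salvages, ranged from 15.2 to 20.6 CPM in controls with a median of 18.7, and read 28.8, 26.5 and 34.2 CPM (0.68 ± 0.12 log2, limma adjusted p = 0.00129). Xdh, which oxidises hypoxanthine to uric acid, ranged from 11.01 to 17.5 CPM with a median of 12.7, and read 19.5, 16.7 and 20.4 CPM (0.50 ± 0.10, limma adjusted p = 0.00397). Pnp did not overlap between the groups, whereas liver 16 lay within the controls for Xdh. Nt5e, the ectoenzyme that makes adenosine outside cells, rose from low levels (1.12 ± 0.20). It met the level filter only through the 3 high-dose livers. With any 1 of them left out, Nt5e was not tested and the list count was 2.

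Stress programmes changed in few members. Over all genes tested 4.03% rose and 3.84% fell. The share that rose was near that for unfolded protein (6.67%), heat shock (5.56%), p53 (6.67%) and fibrosis (5.88%) genes. Of 22 NRF2 targets 3 rose, led by the quinone reductase Nqo1 (1.00 ± 0.19), with 1 called without liver 3 or liver 36 and 6 without liver 16. Of 30 genes of the unfolded protein and integrated stress responses 2 rose and 1 fell, 1 rose without liver 36, and 0 fell without liver 3 or liver 36. The number that fell was 2 without liver 16 and 4 without control 27. Of 18 heat shock genes 1 rose (Hspb8, 0.48 ± 0.14), and of 15 p53 targets 1 rose (Fas, 0.62 ± 0.18). Each of these calls was lost on leaving out any of 7 of the 10 livers, with log2 values from 0.42 to 0.59 and from 0.55 to 0.72, while 3 p53 targets were called without liver 16. Of 16 glucocorticoid-responsive genes 2 rose, 1 without liver 3 and 4 without control 29. Of 19 clock genes and 14 cell cycle genes 0 were called. The fibrosis list held 1 called gene of 17, the protease inhibitor Timp1 (1.30 ± 0.26), and 4 were called without control 27 and 2 without control 29, liver 3 or liver 16.

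Cytosolic ribosomal proteins rose in 8 of 55 cases, with a median of 0.13 that is smaller than the shift of the median gene on the deposited scale. Rps20 rose most clearly (0.51 ± 0.08, limma adjusted p = 1.70e-04). Rps13 (0.22 ± 0.05) and Rpl19 (0.22 ± 0.06) turned to -0.027 and -0.026 on the deposited scale, and they lost their calls without liver 3 (0.21 each) or liver 36 (0.23 and 0.22). The count was 1 without liver 3, 3 without liver 36, 5 without control 27 and 13 without liver 16. Of 31 proteasome genes 2 rose (6.45%, near the 4.03% of all genes tested), and of 31 lysosome genes 7 did (22.6%). These became 0 and 3 without liver 3, and 1 and 1 without liver 36. The proteasome count was 1 without controls 1, 2, 15 or 27 and 4 without control 29.

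**Figure D5:**
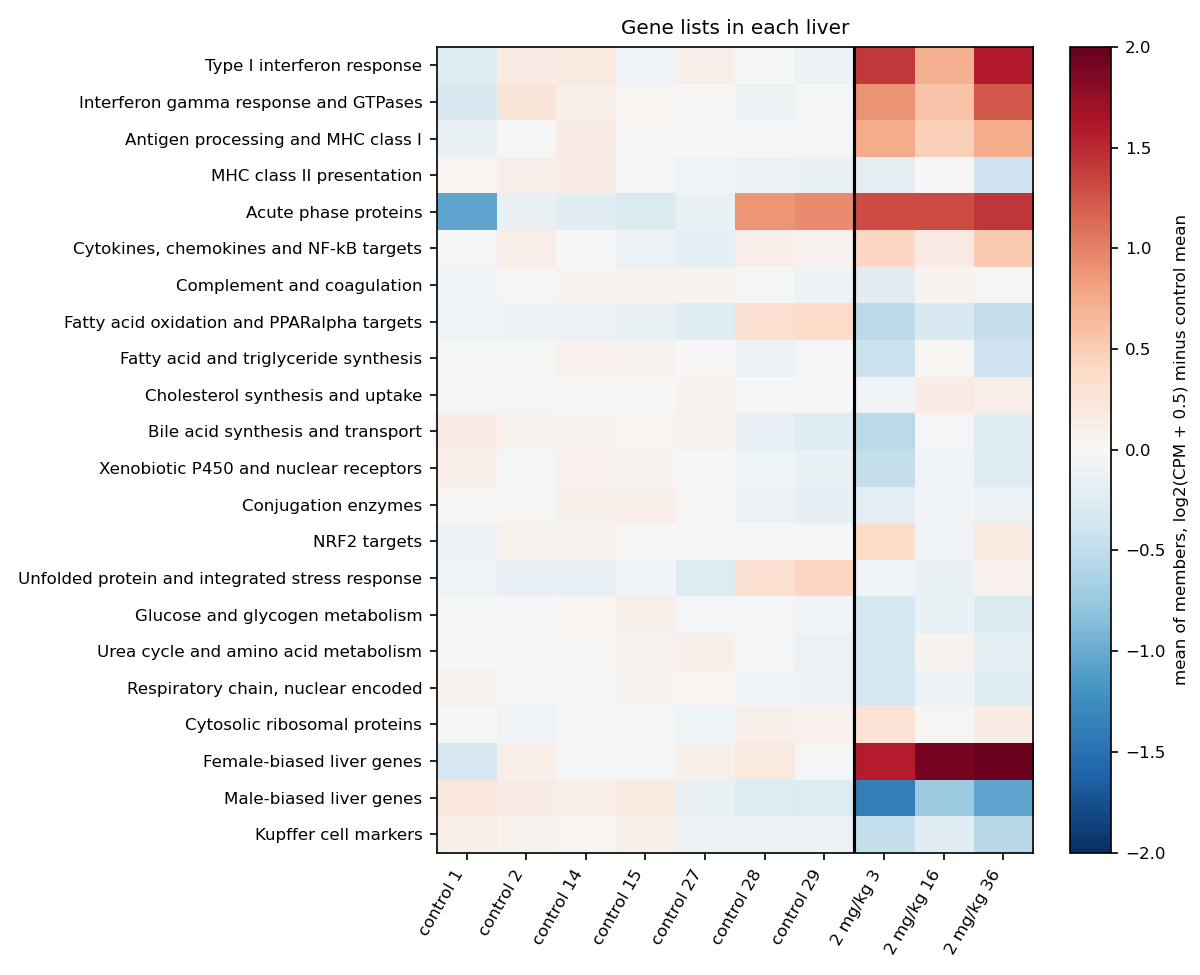
Mean over the tested members of 22 gene lists in each of the 10 livers, as log2(CPM + 0.5) minus the control mean, in colour from blue (below) to red (above). The interferon rows are weakest in liver 16 of the high-dose livers (0.70 against 1.42 and 1.59), and the acute phase row is also raised in controls 28 and 29 (0.89 and 0.95).

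The lists of cell type markers were read to see which cells the livers held. In bulk liver, fewer cells of a type and less RNA per cell cannot be told apart. Hepatocyte markers were abundant in every library, with a summed level of 43024 to 58111 CPM in controls and 35723 to 42285 CPM at 2 mg/kg. Of 16, 6 fell (37.5%) and 1 rose (6.25%, near the 4.03% of all genes tested). The 6 became 1 without liver 3 and 3 without liver 36. The rise was lost without control 1, 14 or 28 or liver 16 or 36. Alb, for albumin, changed by -0.36 ± 0.09 and lost its call without liver 3 (-0.28) or liver 36 (-0.34).

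Some Kupffer cell markers were lower. Of 20 tested, 5 fell and 0 rose, with a median of -0.46 and a summed level of 194 to 253 CPM in controls against 167 to 184 CPM. Cd163, the scavenger receptor of haemoglobin, ranged from 0.736 to 1.90 CPM in controls with a median of 1.41, and read 0.548, 0.506 and 0.342 CPM (-0.97 ± 0.18 log2, limma adjusted p = 0.00182). C1qc, a chain of complement C1q made by macrophages, ranged from 14.6 to 19.2 CPM with a median of 17.4, and read 10.3, 12.5 and 11.2 CPM (-0.57 ± 0.11). Neither overlapped, although Cd163 rested on few reads. The count was 2 without liver 3, 3 without liver 36, 8 without control 29, 11 without controls 28 and 29 and 12 with a term for the range of animal numbers.

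Of 16 neutrophil markers 4 were tested and 2 rose, Lcn2 and S100a9. Lcn2 is also made by hepatocytes in an acute phase response and carried most of the list's summed level of 699 to 1233 CPM against 25.7 to 289 CPM in controls. S100a9, a calcium-binding protein of neutrophils, ranged from 2.18 to 25.2 CPM in controls with a median of 10.7, and read 52.6, 18.7 and 52.0 CPM (1.84 ± 0.53 log2, limma adjusted p = 0.0338). Liver 16 lay within the controls, and the call was lost without liver 3 (1.61), liver 36 (1.61), control 15 (1.80) or control 27 (1.71). Of 19 T and NK cell markers 7 were tested and 3 rose (Gzma, Ccl5 and Xcl1), and 0 were called without liver 3 or liver 36. Their summed level was 8.70 to 19.1 CPM in controls and 20.9 to 26.2 CPM at 2 mg/kg.

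Of 12 monocyte markers 8 were tested and 1 rose, Plac8 (1.00 ± 0.23), which lost its call without liver 3 (0.96), and 2 were called without control 14. The only dendritic cell marker that was tested was Bst2, which is also an interferon-induced gene. Of 2 B cell, 11 stellate cell and 3 cholangiocyte markers tested, 0 were called. Of 18 sinusoidal endothelial markers 1 rose and 1 fell (5.56% each, near the 4.03% and 3.84% of all genes tested). Of 7 erythroid and platelet markers 1 fell. All 3 calls were lost without liver 3, and that of the endothelial gene that fell also without liver 36, control 1 or control 14, while 3 endothelial genes fell without liver 16. What part any of these cell populations had in the differences was not tested.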

How the data were processed

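RNA from 22 perfused mouse livers was read as 3' mRNA libraries with spike-ins (Collibri kit, NextSeq). Per the submitters' processing notes, the authors used bcl2fastq, Trim Galore 0.6.7, STAR 2.7.9a, Salmon 1.5.2, R 4.1.1 and DESeq2 1.32.0 with GRCm39, with no roles stated. The deposited signal values were read counts divided by 1 size factor per library that follows the spike-ins: dividing by a step found for each library gave whole reads for 100% of values within 0.001. The 16553 rows held 84 spike-ins and 16469 genes. Gene reads were rescaled to TMM-scaled CPM, and 10763 genes at 1 CPM or more in at least 3 libraries were tested.

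The main test was limma 3.58.1 with a mean-variance trend on log2(CPM + 0.5) in all 22 libraries, 2 mg/kg minus control, with Benjamini-Hochberg adjustment. edgeR 4.0.16, DESeq2 1.42.0 and voom ran on recovered reads as alternatives in R 4.3.3, and edgeR called 764 genes. The fit was tested on simulated data. Genes named are Hprt, the 15 most raised and 15 most lowered called genes with a known name, at least 5 CPM in the higher group and no overlap, and from each list the called genes of lowest adjusted p, at most 4, or the 2 most abundant where none was called. The members and the 47 lists were chosen with earlier results of these data known. Lists held 1129 genes, of which 965 were tested, and are described by counts. Every pair of high-dose libraries differed beyond sampling noise (chi-square per degree of freedom 26.0 to 48.8), as did every pair of controls (12.4 to 79.1). Promoters came from RefSeq on GRCm38.p6, matched by symbol. The table names no positions.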

Additional observations from a re-analysis of the deposited data

Results flagged for a closer look

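Of 155 named genes, 9 had a control liver whose gap to its nearest neighbour took more of the control range than Dixon's critical value for 7 samples (0.568) allows. Chance alone marks about 1 group in 20, and 9 of 155 is near that rate. Control 1 was far below the other controls in 4 of the 9 genes. It read 31.1 CPM for Saa3, where the next control read 387, and 3.13 CPM for Irf7, where the next read 8.39. It also read 2.31 CPM for Ifi44 (next 6.95) and 0.408 CPM for Cyp3a41a (next 1.92). Control 27 read 5975 CPM for Mup7, below the next value of 9115, and was high for Serpina1e at 2912 CPM (next 2091) and for Prlr at 7.07 CPM (next 4.64). Control 2 was high for Sult2a2 at 2.47 CPM (next 0.641) and low for Tsn at 7.01 CPM (next 8.21).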

How the results depend on the processing

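No paired analysis was possible because the control and 2 mg/kg groups share no animal number. The 847 calls (434 higher, 413 lower) became 55 (33 higher, 22 lower) on the deposited spike-in scale, 312 (198 and 114) with only the 10 libraries in the fit and 423 (225 and 198) at an adjusted p below 0.01. The number called lower was 674 without controls 28 and 29. Leaving out each liver in turn gave 373 to 1056 calls, 222 to 496 higher and 138 to 560 lower. Leaving out a high-dose liver leaves 2 in that arm. Median-of-ratios factors gave 878 calls, DESeq2 932, voom 1117 and edgeR 764, of which 733 were among the 847. A term for the range of animal numbers gave 919. Pseudocounts of 0.1 and 2, no filter and a filter of 5 CPM gave 839, 858, 792 and 832. With only the 10 libraries, 30 type I interferon and 12 acute phase genes rose, and 6 fatty acid oxidation and 4 respiratory chain genes fell. On the deposited scale 3 named genes reversed, Rps13 (-0.027), Rpl19 (-0.026) and Psma4 (-0.084), where the median gene shifted by -0.20. Of 143 named genes called, 135 kept their call with edgeR, 36 on the deposited scale, 97 of 142 with only the 10 libraries, 97 of 140 without liver 3 and 106 of 140 without liver 36. Cause was not tested for any of these. Hprt kept its direction and its side of the threshold in the exact permutation test under every setting that could be computed, from -0.83 to -1.22 log2. Its limma call was lost on the deposited scale (-1.19 log2, adjusted p = 0.134). Precision is limited by the 3 high-dose livers and, for genes of low CPM, by depth.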

Other observations

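Families outside the lists were picked by symbol after their values had been seen, so their counts are descriptions. Carboxylesterases, which hydrolyse esters of drugs and lipids in hepatocytes, fell in 7 of 12 tested genes and rose in 0, with a median of -0.73 log2. Ces2a ranged from 58.9 to 86.9 CPM in controls with a median of 68.3, and read 29.6, 47.4 and 41.8 CPM in livers 3, 16 and 36 (-0.86 ± 0.12, limma adjusted p = 9.75e-05). Ces3a ranged from 336 to 477 CPM with a median of 435, and read 208, 310 and 258 CPM (-0.71 ± 0.10). Both genes lay below every control in each high-dose liver. Ces1c, the carboxylesterase secreted into mouse plasma, differed by -0.17 ± 0.11 and was not called. The count was 6 without liver 3 or liver 36 and 7 without controls 28 and 29, and near-identical copies share reads.

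Mitochondrially encoded protein genes fell in 5 of 13 cases and all 13 differences were negative, with a median of -0.17. On the deposited scale, where the median gene shifted by -0.20, 0 of them were called. mt-Nd2, a subunit of complex I, ranged from 8141 to 9328 CPM in controls with a median of 8745, and read 6587, 7346 and 7041 CPM (-0.32 ± 0.06, limma adjusted p = 0.00271). The count was 1 without liver 3 or liver 36. Of 16 peroxin genes, which build peroxisomes, 1 fell (Pex5, -0.30 ± 0.08) and 0 rose, and 0 fell without liver 3, 16 or 36 or with edgeR.

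Ifitm3, which blocks the entry of viruses through endosomes, ranged from 438 to 601 CPM in controls with a median of 584, and read 1151, 1022 and 1262 CPM (1.05 ± 0.12, limma adjusted p = 1.68e-05). Of 4 Ifitm genes tested 3 rose, and 2 did without liver 3. Of 11 Parp genes 5 rose, among them Parp12 (1.09 ± 0.15), and 3 did without liver 3 or liver 36, while Parp1, the enzyme of DNA repair, differed by -0.18 ± 0.14 and was not called. All 4 tested Trim12 and Trim30 genes rose, with a median of 1.77, and all 4 were called without liver 3, 16 or 36. Tmem176a (0.77 ± 0.09) and Tmem176b (0.54 ± 0.07), neighbouring membrane proteins of myeloid cells, rose in the 3 livers without overlap, at 60.8, 60.045 and 65.0 CPM for Tmem176a against 30.5 to 40.4 CPM in controls. On the deposited scale 0 Ifitm, 0 Parp, 2 Trim12 and Trim30 and 0 Tmem176 genes were called.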
